A study of Sus scrofa with 4 samples.

Results

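Claudins and junction plaque proteins hold the cells of an epithelium together, and 7 of their genes were followed in pig (Sus scrofa) blastocysts: the claudins CLDN4, CLDN7 and CLDN10, the tight junction plaque gene CGN, the catenins CTNNB1 and JUP, and the desmosomal plaque gene PKP2. The genes were chosen by name, through the platform table that gives a symbol to each spot number, and every probe with one of these symbols was taken. Earlier results of these data were known at that choice, so counts of calls among the 7 genes are a description. The choice gave 9 of the 43794 EMPV1 probes, 2 each for CGN and PKP2 and 1 each for the other 5 genes, out of 10022 genes with a symbol. The high NEFA pools were 10 blastocysts each, grown from oocytes exposed to much NEFA (non-esterified fatty acids), which are released when fat stores are mobilised. The control pools were 10 blastocysts each from control oocytes. Pools were collected on days 7 and 8, and the labels do not give the day of each pool. The series title adds a co-culture with a layer of GCs, which the labels neither spell out nor assign to one kind of pool. The sources used here do not state the breed, age or number of the oocyte donors. Each of 4 two-colour arrays held 1 pool of each kind, and the high NEFA pool carried Cy3 for replicates 1 and 2 but Cy5 for replicates 3 and 4. The labels name total RNA, while their extraction text describes genomic DNA cut by methylation-sensitive enzymes, so the values below are called probe intensities and not transcript levels.

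The outer layer of the blastocyst, the trophectoderm, is its first epithelium. It pumps fluid inward to form the blastocoel, and tight junctions seal the spaces between its cells so that the fluid stays inside. Claudins are the membrane proteins of the tight junction that set what passes between cells, and cingulin, the product of CGN, lies beneath them on the cytoplasmic side. Adherens junctions hold cells together through cadherins, whose tails bind beta-catenin (CTNNB1) or plakoglobin (JUP). Beta-catenin also carries WNT signals to the nucleus. Desmosomes are spot-like junctions that anchor keratin filaments, and their plaque contains plakoglobin and plakophilins such as PKP2.

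The arrays had between 48.96% and 60.29% of probes above background per channel, with the higher share in Cy3 on every array. A probe counted as above background where its intensity was more than 2 SD over the average negative control spot of its channel, a limit of 310 to 369 in Cy3 and 205 to 247 in Cy5. Levels are log2 of intensity after background correction and loess normalization within each array, and each ratio is log2 of the high NEFA pool over its control pool, positive where high NEFA was higher. Of 10 trophectoderm markers with a probe, 8 were above background in all 8 channels, among them GATA2, GATA3, TFAP2C and TEAD4. Of 5 inner cell mass markers 2 were so (LIN28A and UTF1), of 5 granulosa markers 1 (AMH), and of 10 oocyte markers 3 (ZP2, ZP4 and GDF9). The brightest granulosa genes were AMH (10.06), LHCGR (8.09) and AMHR2 (7.94), and the brightest oocyte genes ZP2 (8.60), ZP4 (8.57) and GDF9 (8.30). The oocyte growth factor gene BMP15 was above background in 0 of 8 channels. CDX2, POU5F1, NANOG, KRT8, KRT18 and the cadherin CDH1 had no probe with that symbol in the platform table.

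No probe of the 7 genes differed between the pools past the adjusted threshold. In the limma fit across all tested probes, 0 of 8 tested junction probes had a Benjamini-Hochberg adjusted p under 0.05, and the background was 0% of 24505 probes, with a smallest adjusted p of 0.0949. With 1 array left out, 21 to 77 probes of the whole table passed, and 0 of them belonged to the 7 genes. At an unadjusted p under 0.05, 1 of the 8 was called, the bright PKP2 probe, against 6.41% of all tested probes. It was lower in high NEFA pools, where 3.24% of all probes were called lower and 3.17% higher. With a difference of at least 1.5-fold also required, 0 of the 8 were called, against 0.359% of all probes. The fitted ratios of the 8 probes ran from -0.31 to 0.22, and their standard errors from 0.12 to 0.15. The median 95% interval over all probes, not adjusted for the number of probes, reached 0.30 to either side of the ratio. Nothing in the labels says that the pools came from separate sows or collections, so a p-value covers only how these pools varied, which may be technical. The limma standard errors draw more on the spread of all tested probes (7.84 degrees of freedom) than on that of the probe itself (2).

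**Figure D1:**
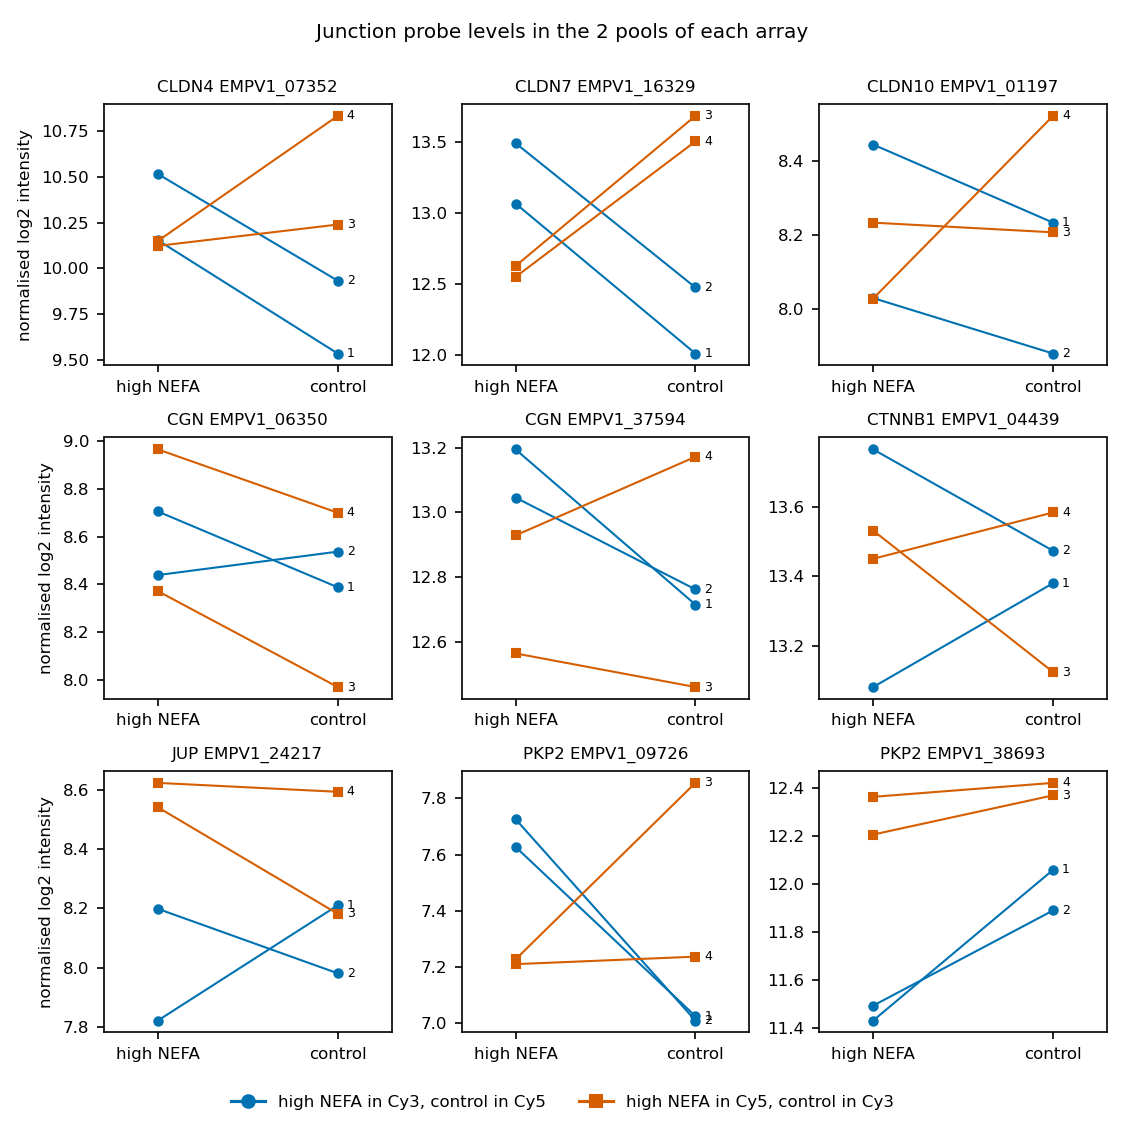
Normalised log2 intensity of each of the 9 probes in the high NEFA pool (left) and the control pool (right) of each array. Lines join the 2 pools of 1 array, numbered by replicate, and the colour and marker give the dye of the high NEFA pool. The bright PKP2 probe EMPV1_38693 is the one whose 4 lines all rise toward the control pool.

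Of the claudins, CLDN7 was bright in every pool and its ratio followed the dye. CLDN7, a claudin found along the sides of epithelial cells as well as at the tight junction, had levels of 13.07, 13.49, 12.63 and 12.55 in the high NEFA pools of replicates 1 to 4, against 12.01, 12.47, 13.68 and 13.50 in the control pools. The pool in Cy3 was the brighter one on each array, and the 2 groups overlapped. Its ratios were 1.06 and 1.02 on replicates 1 and 2, and -1.06 and -0.96 on replicates 3 and 4. The fit divided this into an exposure ratio of 0.02 ± 0.12 (SE, n = 4; 95% interval -0.26 to 0.29) and a dye effect of -1.02 ± 0.12 in log2 of Cy5 over Cy3. The limma adjusted p was 0.985 for exposure and 0.00197 for dye. With the dye effect removed, the 4 exposure ratios lay between -0.04 and 0.07. Thus the interval for CLDN7 held no difference beyond 0.29 in either direction, as long as the labelled exchange of dyes between arrays holds. It also takes the exposure ratio to be the same on replicates 1 and 2 as on replicates 3 and 4. That interval rests on median pixels, and from mean pixels the fitted ratio was 0.09 ± 0.04, with an unadjusted p of 0.074 and an adjusted p of 0.571 in limma.

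CLDN4, a claudin that tightens epithelia in cultured kidney cells, had ratios that also followed the dye. Its levels were 10.15, 10.51, 10.12 and 10.15 in high NEFA pools, against 9.54, 9.93, 10.24 and 10.83 in control pools. The high NEFA pools were close together, with an SD of 0.19, while the control pools had an SD of 0.55 and lay on both sides of them. These levels still hold the dye effect given below, so the SDs do not compare how much the pools themselves varied. The ratios on replicates 1 to 4 were 0.62, 0.58, -0.12 and -0.68, which averaged 0.60 on the arrays with high NEFA in Cy3 and -0.40 on those with it in Cy5. The fitted ratio was 0.10 ± 0.14 (SE, n = 4; 95% interval -0.21 to 0.41) with a limma adjusted p of 0.899. The dye effect was -0.50 ± 0.14, with an adjusted p of 0.029. CLDN4 and CLDN7 were the 2 of 8 junction probes with a dye effect past the adjusted threshold, where 22.8% of all tested probes passed it.

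CLDN10, which in mammalian kidney forms ion channels between cells, was above background in all 8 channels by a small margin. The raw intensity was 495, 364, 273 and 251 in high NEFA pools, against 264, 205, 428 and 524 in control pools. On replicate 2 the control value lay at the background limit of 205. The normalised levels were 8.45, 8.03, 8.23 and 8.03 in high NEFA pools and 8.23, 7.88, 8.21 and 8.52 in control pools, and these overlapped. The ratios of 0.21, 0.15, 0.03 and -0.50 gave a fitted ratio of -0.03 ± 0.14 (SE, n = 4; limma adjusted p 0.977). Replicate 4 alone was below 0, and without it the ratio was 0.10.

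**Figure D2:**
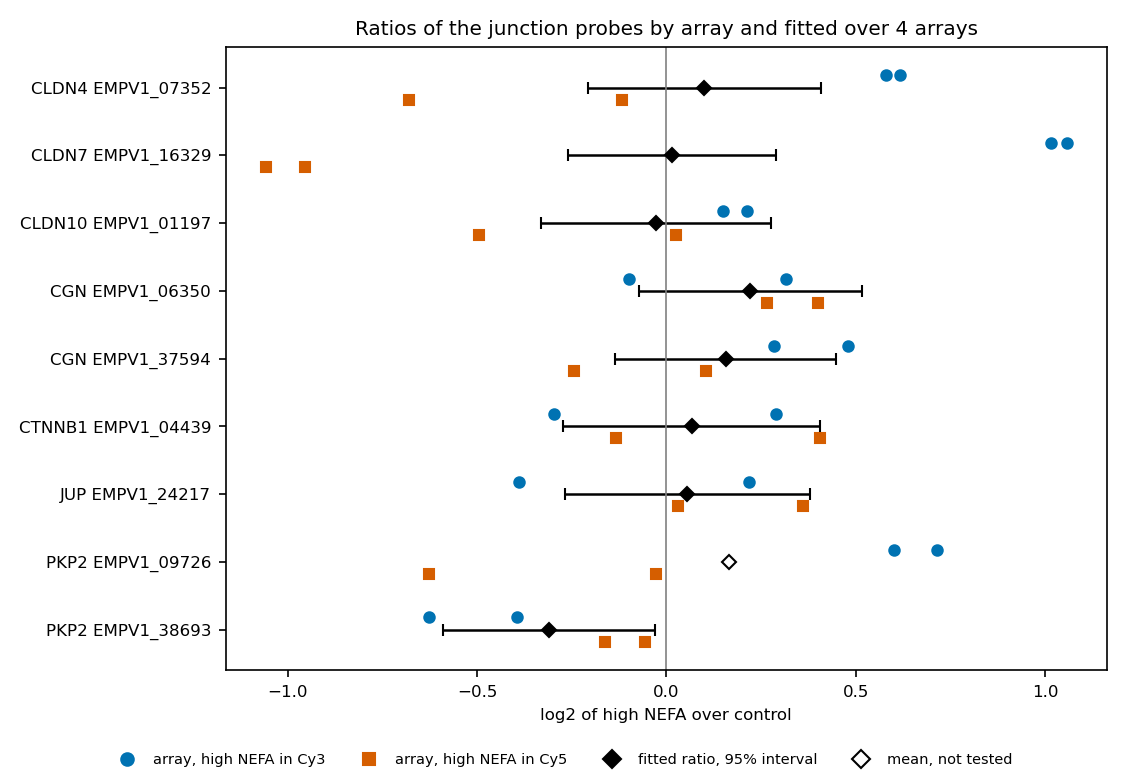
Log2 of high NEFA over control for the 9 probes, with 1 point per array by dye orientation and the fitted ratio with its 95% interval from limma for the 8 tested probes (black diamonds). The dim PKP2 probe EMPV1_09726 has a plain mean and no interval. CLDN7 shows the 2 dye orientations near 1 and -1 with the fitted ratio at 0.02, and PKP2 EMPV1_38693 is the one tested probe whose 4 points and interval lie below 0.

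Cingulin was measured by 2 probes, and both had a positive fitted ratio that did not pass. The CGN probe far above background, EMPV1_37594, had levels of 13.20, 13.05, 12.56 and 12.93 in high NEFA pools, against 12.72, 12.76, 12.46 and 13.17 in control pools. The high NEFA pool was the higher on replicates 1 to 3 and the lower on replicate 4. Its fitted ratio was 0.16 ± 0.13 (SE, n = 4; 95% interval -0.14 to 0.45) with a limma adjusted p of 0.834. The CGN probe near background, EMPV1_06350, had 8.70, 8.44, 8.37 and 8.96 in high NEFA pools, against 8.39, 8.54, 7.97 and 8.70 in control pools. Here replicate 2 was the array below 0, and the fitted ratio of 0.22 ± 0.13 (95% interval -0.07 to 0.52) had a limma adjusted p of 0.778. The 2 probes agreed in the sign of the fitted ratio and differed in which array went the other way. From mean instead of median pixels, the fitted ratios were -0.01 ± 0.08 for EMPV1_37594 and 0.03 ± 0.06 for EMPV1_06350.

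The catenins did not separate the pools. CTNNB1 had levels of 13.08, 13.76, 13.53 and 13.45 in high NEFA pools, against 13.38, 13.47, 13.12 and 13.58 in control pools. Its ratios were -0.30, 0.29, 0.41 and -0.13, so that each dye orientation held 1 array above and 1 below 0. The fitted ratio was 0.07 ± 0.15 (SE, n = 4; 95% interval -0.27 to 0.41; limma adjusted p 0.950). JUP had levels of 7.82, 8.20, 8.54 and 8.62 in high NEFA pools, against 8.21, 7.98, 8.18 and 8.59 in control pools. Its raw intensity of 350 in the high NEFA pool of replicate 1 lay just above the limit of 349. JUP ratios of -0.39, 0.22, 0.36 and 0.03 gave a fitted ratio of 0.05 ± 0.15 (95% interval -0.27 to 0.38; limma adjusted p 0.956). The array ratios of CTNNB1 and JUP had the same sign on replicates 1 to 3, with replicate 1 the lowest for both and replicate 3 the highest. From mean instead of median pixels, the ratios were -0.40, 0.18, 0.37 and -0.18 for CTNNB1. Those of JUP were 0.03, -0.02, 0.08 and -0.004, so that the signs differed on replicates 1 and 2.

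PKP2, whose product links desmosomal cadherins to the keratin anchor desmoplakin, was lower in the high NEFA pool of all 4 arrays by its bright probe. EMPV1_38693 had levels of 11.43, 11.49, 12.21 and 12.36 in high NEFA pools, against 12.06, 11.89, 12.37 and 12.42 in control pools. Each high NEFA pool lay below the control pool of its own array, while across arrays the groups overlapped, since both pools were brighter on replicates 3 and 4. The ratios were -0.63, -0.40, -0.16 and -0.06, and with the dye effect of 0.20 ± 0.13 removed they were -0.43, -0.20, -0.36 and -0.26. Of all tested probes, 4.06% were lower on all 4 arrays and 3.76% higher, while of the 8 junction probes 1 was lower on all 4 and 0 were higher. The fitted ratio was -0.31 ± 0.13 (SE, n = 4; 95% interval -0.59 to -0.03), a level 1.24-fold lower in high NEFA pools, with an unadjusted p of 0.0334 and an adjusted p of 0.766 in the limma fit. In limma fits with 1 array left out, the ratio was -0.25 without replicate 1 (unadjusted p 0.130), -0.37 without replicate 2 (0.0315), -0.28 without replicate 3 (0.139) and -0.34 without replicate 4 (0.0818). These fits leave the probe itself fewer degrees of freedom than the main fit. Their p-values therefore draw still more on the spread of all tested probes. In bulk pools, fewer cells of a type and less material per cell cannot be told apart.

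The PKP2 ratio was smaller with another summary of the same spots. With mean pixel intensity the 4 ratios were -0.25, 0.10, -0.08 and -0.01, and the fitted ratio was -0.06 ± 0.07 with an unadjusted p of 0.457 in limma. The raw mean-pixel intensities were 2978, 3534, 3297 and 3837 in high NEFA pools, against 2812, 2519, 4498 and 4728 in control pools. The raw medians were 3252, 3437, 4091 and 4653 in high NEFA pools, against 3734, 3254, 6214 and 6350 in control pools. Over all tested probes the fitted ratios of the 2 summaries had a Pearson r of 0.49, as a description across probes of the same spots, and an SD of 0.10 with the mean and 0.17 with the median. Which summary is closer to the hybridised amount was not tested.

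The dim PKP2 probe, EMPV1_09726, exceeded the background limit in 1 of 4 high NEFA channels and 1 of 4 control channels and was left out of the test. Its raw intensity was 318, 315, 137 and 149 in high NEFA pools, against 116, 111, 365 and 293 in control pools. It passed the limit in the high NEFA pool of replicate 2 and in the control pool of replicate 3, both in Cy3. The ratios of 0.60, 0.72, -0.63 and -0.03 averaged 0.17, opposite in sign to the bright probe, and were measured near background.

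**Figure D3:**
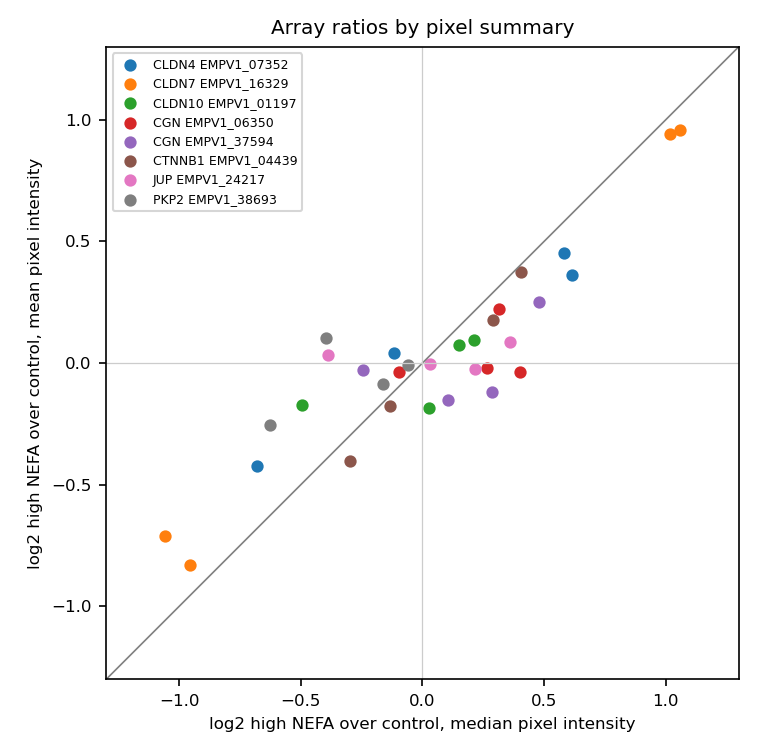
Log2 of high NEFA over control on each array from mean pixel intensity (vertical) against that from median pixel intensity (horizontal), 4 points for each of the 8 tested probes, with the line of equal values. The 4 PKP2 points run from -0.25 to 0.10 on the vertical axis and from -0.63 to -0.06 on the horizontal one, while those of CLDN7 stay near the corners on both.

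The spread between arrays came largely with the dye orientation. Over tested probes, high NEFA over control ratios correlated at 0.46 between replicates 1 and 2 and at 0.615 between replicates 3 and 4. Between arrays of opposite dye orientation the correlation was -0.515 to -0.500, as a description across probes that share arrays. The 2 terms of the fit are told apart only through the dye exchange that the labels state. That exchange also splits replicates 1 and 2 from replicates 3 and 4. The dye term thus cannot be told apart from an exposure ratio that differed between these pairs. Among the other junction probes, TJP3, a scaffold protein of the tight junction named here after its values were seen, resembled CLDN7, with a dye effect of -1.19 and a ratio of -0.05 ± 0.13 (SE, n = 4).

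**Figure D4:**
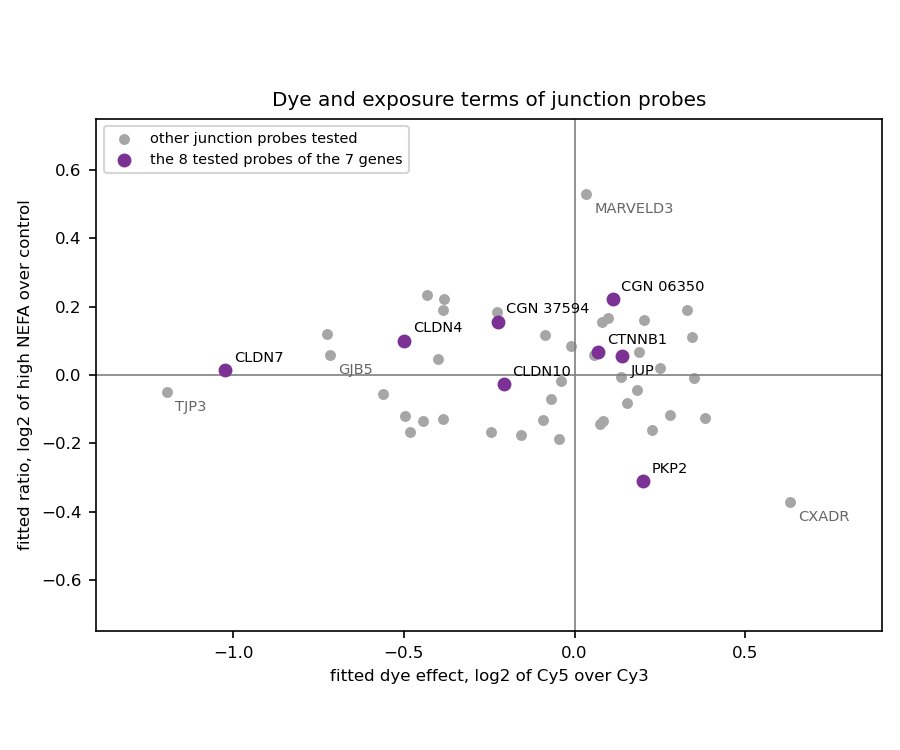
Fitted exposure ratio (vertical, log2 of high NEFA over control) against fitted dye effect (horizontal, log2 of Cy5 over Cy3) for the 8 tested probes of the 7 genes and the other tested junction probes. CLDN7 and TJP3 lie farthest left at ratios near 0, and PKP2 lies low on the ratio axis with a small dye effect.

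Other junction genes did not pass either. The junction lists below also hold the 7 genes, and JUP is counted in both the adherens junction and the desmosome list. One tested probe a gene was used, the brightest, and 0 genes of the lists below passed over all probes. Of 6224 genes tested, 47.2% had a positive ratio, the median was -0.01, and 6.40% had an unadjusted p under 0.05. Of 11 claudins with a probe, 7 were tested, 6 with a positive and 1 with a negative ratio, with a median of 0.10 (0.041 without replicate 3) and 0 at an unadjusted p under 0.05. CLDN4, CLDN7 and CLDN10 are among the 7, and the median is the ratio of CLDN4 itself. The smallest p were those of CLDN12 (0.19 ± 0.12) and CLDN8 (0.16 ± 0.15). CLDN2, CLDN11 and CLDN18 were above background in 0 of 8 channels. On single arrays the claudin median was 0.21, 0.10, 0.03 and -0.08 on replicates 1 to 4. The mean level of 9 tested trophectoderm markers, of which 8 had a positive ratio, was 10.91 to 11.16 in high NEFA pools and 10.70 to 11.03 in control pools, and the high NEFA pool had the higher mean on 4 of 4 arrays. At an unadjusted p under 0.05 were 4 of the 9, and the smallest p were those of DLX3 (0.57 ± 0.13) and TFAP2C (0.37 ± 0.15). DLX3 was measured near background and above it in 2 of 4 channels for either pool. The array ratios were 1.3, 0.98, -0.10 and 0.07 for DLX3 and 1.11, 0.35, 0.05 and -0.03 for TFAP2C. Both were highest on the arrays with high NEFA in Cy3. GATA3, also among the 4 and above background in all 8 channels, had 0.31 ± 0.13. Its array ratios were 0.32, 0.08, 0.50 and 0.33. A second TFAP2C probe had 0.17 ± 0.18, and DAB2, another of the 4, had 0.28 ± 0.12 by its brightest probe and -0.12 ± 0.15 by a second. Inner cell mass markers had a median ratio of 0.25 over 4 tested genes, with LIN28A at 0.40 ± 0.13 and UTF1 at 0.36 ± 0.13 the 2 at an unadjusted p under 0.05. Their mean level, 8.24 to 8.76 in high NEFA pools and 7.99 to 8.50 in control pools, was likewise higher in the high NEFA pool on 4 of 4 arrays, while that of granulosa and of oocyte markers was higher there on 1 of 4. The median was -0.19 over 3 granulosa markers and -0.10 over 6 oocyte markers, among which GDF9 had -0.33 ± 0.13 and ZAR1 0.30 ± 0.13. The part of these markers in the ratios of the claudins and other junction genes was not tested.

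Among 16 tight junction genes tested other than claudins, CGN included, 9 were positive and 7 negative. Their median was 0.06, and 1 was at an unadjusted p under 0.05. This was CXADR, a cell adhesion protein of the tight junction that is also a virus receptor, with a ratio of -0.37 ± 0.14 and array ratios of -0.87, -1.14, 0.51 and 0.005, above background in 2 of 4 high NEFA channels but all 4 of the control. MARVELD3, a tight junction membrane protein related to occludin, had 0.53 ± 0.26, with array ratios between -0.46 and 1.59, and exceeded the limit in 3 of 4 high NEFA channels and 1 of 4 control channels. Occludin itself, OCLN, had 0.22 ± 0.13. The sealing scaffold TJP1, which binds both claudins and cingulin, had 0.05 ± 0.13.

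Of 12 tested adherens junction genes, 5 were positive and 7 negative, with a median of -0.03 (0.028 without replicate 4) and 0 at an unadjusted p under 0.05. The smallest p were those of CTNNA1, the alpha-catenin that ties beta-catenin to actin, at 0.19 ± 0.12, and CTNNAL1, a related protein, at -0.19 ± 0.13. EPCAM, an epithelial adhesion molecule, was bright in all 8 channels and had -0.02 ± 0.12. Of 4 tested desmosome genes, PKP2 was the 1 at an unadjusted p under 0.05. Desmoplakin, DSP, had 0.24 ± 0.14, the opposite sign to PKP2, with array ratios of 0.76, 0.58, 0.09 and -0.49, and exceeded the limit in 3 of 4 high NEFA channels and 3 of 4 control channels. PERP, a desmosomal membrane protein, had -0.01 ± 0.16 and was above background in all 8 channels. The desmosome median was 0.02, and it was 0.20 without replicate 1 and -0.17 without replicate 2.

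Gap junction, fluid transport and beta-catenin lists completed the set. Of 4 tested gap junction genes, 2 were positive and 2 negative, with a median of -0.01 (-0.090 without replicate 2 and 0.078 without replicate 3), and GJB1 had 0.15 ± 0.12 and GJD2 -0.14 ± 0.13. All 5 tested blastocoel transport genes had a positive ratio, with a median of 0.16 and 0 at an unadjusted p under 0.05. The water channels AQP9 and AQP3 had 0.22 ± 0.13 and 0.19 ± 0.14, and a second AQP3 probe had -0.02 ± 0.15. The bright AQP3 probe had ratios of 0.67, 0.93, -0.19 and -0.66, a dye pattern like that of CLDN4. Of 7 tested partners and targets of beta-catenin, 4 were positive, with a median of 0.04 (0.16 without replicate 1). GSK3A, a kinase that marks beta-catenin for degradation, was the 1 at an unadjusted p under 0.05, with 0.37 ± 0.13 and array ratios of -0.22, -0.07, 1.12 and 0.66. CSNK1A1, the kinase that primes beta-catenin for it, had 0.26 ± 0.18 by its brightest probe, and its 3 other tested probes had 0.20 ± 0.14, 0.17 ± 0.15 and -0.20 ± 0.13. KRT19, the 1 epithelial keratin tested, had -0.07 ± 0.21.

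**Figure D5:**
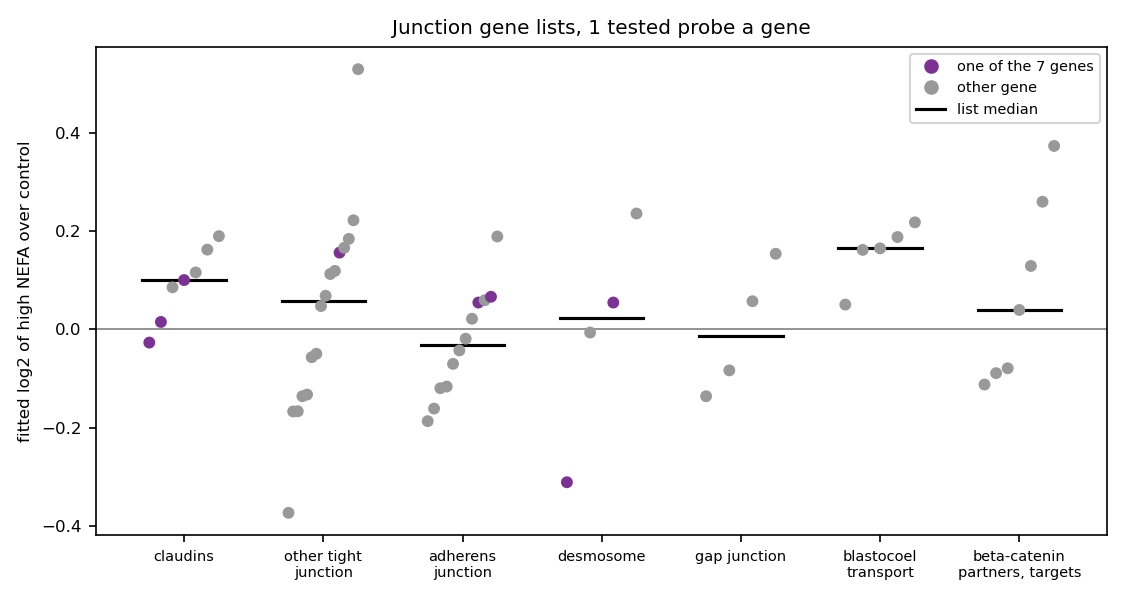
Fitted log2 of high NEFA over control of each tested gene in 7 lists, 1 probe a gene, with the list median as a black bar and the 7 genes of interest in purple. CXADR lies lowest, followed by PKP2, and MARVELD3 lies highest.

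By the Euclidean distance between array ratios over 4 arrays, the named genes most like PKP2 among 6208 were MLLT11 (distance 0.05), RABEP1 (0.05) and PDHX (0.13). Their fitted ratios were -0.31, -0.33 and -0.36. Those most like CLDN4 were SEPHS1 (0.18), SPAG1 (0.19) and STUB1 (0.21), with fitted ratios of 0.03, 0.08 and 0.11. With 4 values a gene, such likeness is a description of these arrays.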

How the data were processed

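Per the file headers, the scanner output gives spot intensity in both channels (Cy3 and Cy5) as the median and the mean over pixels, with local background, before any correction or normalization. The deposited series matrix holds log2 ratios from limma, per the submitters' processing notes, with scale, centring and direction not stated. Its columns correlated at 0.802 to 0.814 with log2 of Cy5 over Cy3 computed here, and it served as an alternative. Image software and genome build are not given in the sources used here.

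Median intensities were corrected with normexp (offset 50) and loess-normalized within each array in limma 3.58.1 (R 4.3.3), with control spots at weight 0 and the 17 to 60 marked spots per array left out. Probes above background in at least 4 of 8 channels were tested. The model had an exposure coefficient signed by dye and a dye intercept, leaving 2 residual degrees of freedom, to which moderation added 7.84. Benjamini-Hochberg adjustment ran over 24505 probes.

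Of the probes, 13146 had 1 symbol and 30648 none, and 218 older symbols were updated through RefSeq. Unnamed probes of the 7 genes, if any, were not used here. Genes named beside the 7 are the 2 of smallest unadjusted p in each list, the 3 nearest to PKP2 and CLDN4, the 3 brightest granulosa and oocyte genes, and some chosen after their values were seen (TJP3, TJP1, EPCAM, GATA3 and DAB2 and second probes among them). Members and lists were chosen with earlier results of these data known. The number of arrays limits the precision.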

Additional observations from a re-analysis of the deposited data

How the results depend on the processing

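In each of 16 alternative fits, 0 probes of the 7 genes passed the adjusted threshold. The PKP2 ratio stayed negative in all of them, from -0.37 to -0.06, and its unadjusted p was under 0.05 in 10. Scaling of intensity between arrays (Aquantile) left the ratios as they were. It repeated the main fit and is counted among the 16 and the 10. Changes of the probe filter, the dye intercept or the prior also kept the PKP2 ratio at -0.31, so its sign could not change there. The PKP2 ratio was -0.37 to -0.25 with 1 array left out, with an unadjusted limma p above 0.05 without replicate 1, 3 or 4. The array ratios of PKP2 were all negative, so leaving 1 array out could not change the sign either. With no dye intercept the unadjusted limma p was 0.107. Ratios near 0 changed sign: CLDN7 was -0.0017 with median centring, and with mean pixel intensity CTNNB1 was -0.0079 and the bright CGN probe -0.013. With 1 array left out, the CGN probes stayed positive, EMPV1_06350 from 0.12 (without replicate 1) to 0.32 and EMPV1_37594 from 0.069 (without replicate 3) to 0.24, and the ranges were -0.041 to 0.24 for CLDN4 (negative without replicate 3), -0.011 to 0.041 for CLDN7 (negative without replicate 4), -0.16 to 0.10 for CLDN10 (positive without replicate 4), and -0.081 to 0.21 for CTNNB1 and -0.10 to 0.21 for JUP (both negative without replicate 2 or 3). With 1 array left out, list medians ran from -0.17 to 0.20 for desmosome genes, -0.090 to 0.078 for gap junction genes (0.057 for the 1 gene above background in all 8 channels), -0.089 to 0.028 for adherens junction genes, 0.042 to 0.16 for beta-catenin partners and targets, 0.041 to 0.13 for claudins, 0.036 to 0.054 for other tight junction genes and 0.14 to 0.18 for blastocoel transport genes. Over all probes, the count past the adjusted threshold was 6 with plain subtraction, 4 with an offset of 16, 5 with no filter, 3 with the authors' matrix and 21 to 77 with 1 array left out. The count of 88 at an unadjusted p under 0.05 and 1.5-fold became 28 with no background correction, 139 with plain subtraction, 207 with an offset of 16, 18 with mean pixels, 42 with probes above background in all 8 channels, 46 with no dye intercept and 229 to 264 with 1 array left out. The causes were not tested. Signal over background limits the dim PKP2 probe, JUP, CLDN10 and the CGN probe EMPV1_06350.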
